A study of Arabidopsis thaliana with 18 samples.

Results

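The LATERAL ORGAN BOUNDARIES DOMAIN (LBD) genes encode plant-specific transcription factors that share a cysteine-rich DNA-binding region, the LOB domain. Members were the nuclear protein-coding genes of the RefSeq TAIR10.1 annotation named LBD, ASL (the alternative family name, AS2-LIKE) or LOB, or described there as LOB domain proteins, with AS2 itself left out. This gave 42 genes of 27444. Of these, 6 genes, LBD37 to LBD42, form class II and the other 36 were treated as class I. A gene was counted as bound in a library when at least 1 peak summit lay between 3000 bp upstream of its transcription start site (TSS) and 1000 bp past its 3′ end.

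The peaks came from 4 ChIP-seq libraries of 14-day-old Arabidopsis seedlings grown on half-strength MS medium. In 2 libraries BRIP1-GFP was immunoprecipitated with an antibody to GFP, and in the other 2 BRIP2-GFP was. Both fusions were in brm-1, a null mutant, so none of these plants carried functional BRM, the ATPase of the SWI/SNF chromatin remodelling complex to which BRIP1 and BRIP2 belong. The series holds 18 samples, and the other 14 were not analysed here. The promoters that drive the fusions are not given in the sources used here, and no library of plants without a GFP fusion was used, so a site that the antibody alone would enrich cannot be told apart from a BRIP1 or BRIP2 site. The antibody label of BRIP1 replicate 2 reads "none" although its title names an immunoprecipitation. The BRIP2-GFP input in brm-1 is in turn labelled with a GFP antibody. No source used here says whether that sample was the control behind the BRIP2 folds, and its part in those folds and in their difference from the BRIP1 folds was not tested. BRIP1 replicate 2 gave 5343 nuclear peaks, against 3637, 7877 and 6288 in BRIP1 replicate 1 and BRIP2 replicates 1 and 2. The counts of LBD genes bound in all libraries, and by BRIP1 or BRIP2 alone, are given below with and without BRIP1 replicate 2. Depth differed as well: the lowest fold over control that reached the lists at a typical background was 1.59 to 1.73 across the 4 libraries.

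LBD proteins are best known from organ boundaries, where LOB is expressed, and from lateral root formation, where LBD16, LBD18, LBD29 and LBD33 act downstream of the auxin response factors ARF7 and ARF19. Other class I genes act in the vascular cambium or in pollen. Class II genes are tied to metabolism: LBD37, LBD38 and LBD39 repress anthocyanin synthesis and nitrate-responsive genes, and LBD41 is among the genes that plants induce under low oxygen.

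To show the DNA beneath several of the sites, windows around or between summits are printed 5′ to 3′ in the direction of the LBD gene. They come from RefSeq TAIR10.1, are all intergenic, and have in capitals each match, on either strand, to 9 short motifs: the G-box CACGTG, the W-box core TTGAC, the auxin response elements TGTCTC and TGTCGG, the LBD site GCGGCG, the TCP site TGGGCC, the repeat GAGAGAGA, the telo-box AAACCCTA, and a relaxed form of the hypoxia-responsive promoter element (HRPE), 11 bases of which 3 may be any base. These members are shown because they differ in where the site lies relative to the gene and in motif content. LBD39 is shown at its middle site, chr4:17641901-17642021, LBD38 and ASL15 at sites past their 3′ ends, chr3:18516208-18516328 and chr2:17667850-17667970, LBD40 at its site nearer the TSS, chr1:25053027-25053147, and ASL5 between its 2 BRIP2 summits, chr2:12868090-12868210. The ASL5 window holds neither of its BRIP2 summits, which lie just outside it. LBD38, LBD40 and ASL5 lie on the plus strand, and LBD39 and ASL15 on the minus strand.
LBD39: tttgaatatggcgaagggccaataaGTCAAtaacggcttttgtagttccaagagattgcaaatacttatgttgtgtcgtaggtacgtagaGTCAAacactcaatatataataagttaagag
LBD38: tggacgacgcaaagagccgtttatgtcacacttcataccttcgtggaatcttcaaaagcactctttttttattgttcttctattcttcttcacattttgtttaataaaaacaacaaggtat
ASL15: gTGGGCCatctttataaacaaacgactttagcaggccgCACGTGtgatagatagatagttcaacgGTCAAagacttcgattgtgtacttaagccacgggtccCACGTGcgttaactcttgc
LBD40: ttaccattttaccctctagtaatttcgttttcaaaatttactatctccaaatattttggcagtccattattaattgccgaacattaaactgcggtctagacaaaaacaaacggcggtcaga
ASL5: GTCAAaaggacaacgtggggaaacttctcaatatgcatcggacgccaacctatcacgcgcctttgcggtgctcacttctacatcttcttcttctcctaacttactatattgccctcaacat

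Of the 42 LBD genes, 8 were bound in all 4 libraries: LBD37, LBD38, LBD39, LBD40, LBD41, LBD1, LBD11 and ASL15. This was 19.0% of the family, beside 14.9% of all 27444 genes. Without BRIP1 replicate 2 the count over the other 3 libraries was again 8, beside 15.5% of all genes. At the other end, 25 LBD genes (59.5%) had no summit in any library, beside 60.4% of all genes. The family as a whole was therefore bound at a share close to that of the genome, and the members differed by class. In class II, 5 of 6 genes were bound in all 4 libraries and none lacked a summit. Among the other 36 genes, 3 (8.33%) were bound in all 4 libraries and 25 (69.4%) had no summit. LBD genes are short, with a median length of 1559 bp (1624.5 bp in class II, 1340 bp in the others) beside 2078 bp over all genes, so their windows are shorter too. The window bears on the count. With summits from 1000 bp upstream to the 3′ end, 3 members were bound in all 4 libraries (LBD37, LBD40 and LBD41), beside 6.96% of all genes. Within 2000 bp of the TSS there were 5 (with LBD39 and ASL15), beside 9.96%. With each summit given to the nearest TSS at any distance there were 9 (the first 8 and LBD29), beside 9.54%. The split between classes was set with the LBD41 site already known, and no test was run on it.

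By library, 10, 11, 15 and 13 members were bound in BRIP1 replicates 1 and 2 and BRIP2 replicates 1 and 2, beside 16.8%, 24.1%, 36.1% and 29.0% of all genes. All 6 class II genes were bound in each of the first 3 libraries and 5 in BRIP2 replicate 2. Of the class I genes, 4, 5, 9 and 8 were bound in the same order of libraries, which is 11.1%, 13.9%, 25.0% and 22.2%. In every library the class I share lay below that of all genes and the class II share above it.

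**Figure D1:**
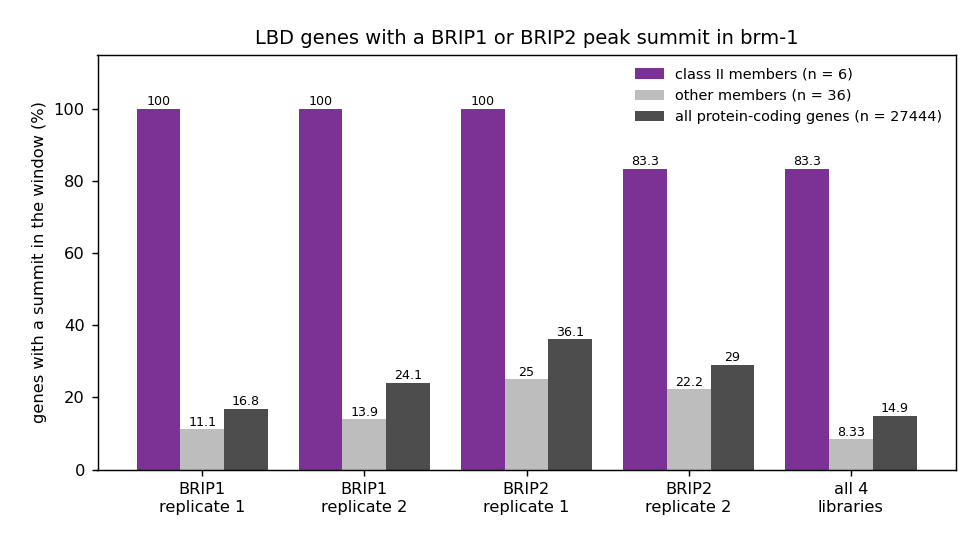
Share of genes with a peak summit in the window (y axis, percent) in each of the 4 libraries and in all 4 together, for the 6 class II LBD genes, the other 36 LBD genes and all 27444 protein-coding genes. In all 4 libraries together 83.3% of class II, 8.33% of the other members and 14.9% of all genes were bound.

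The bound members held 9 regions in which all 4 libraries had a summit inside the member's window. A region was a set of peaks that overlap by at least 1 bp, and LBD40 had 2 of the 9. A region at the 3′ end of LBD37 also had a peak of all 4 libraries. Its BRIP2 replicate 1 summit lay outside the window, so that region was not counted or compared. Of the 9 regions, 5 had their summit upstream of the TSS, 3 past the 3′ end and 1 inside the gene. Intergenic summits made up 7 of the 9 (77.8%), beside 71.3% of the 2982 regions of the genome with a peak of all 4 libraries. The LBD gene had the nearest TSS at 7 of the 9.

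LBD41 (AT3G02550) had the strongest LBD site, 324 bp upstream of the TSS and intergenic. Its fold over local control was 6.81 and 7.24 in BRIP1 replicates 1 and 2, and 8.70 and 9.45 in BRIP2 replicates 1 and 2. It ranked 5 of 3637 and 6 of 5343 nuclear peaks by fold in the BRIP1 libraries, and 2 of 7877 and 2 of 6288 in the BRIP2 libraries. Every library thus placed it among its 6 highest peaks. The summits of the 4 libraries fell within 36 bp of each other, and each peak was over 1000 bp wide. The fragment pileup at the summit was 228, 307, 266 and 228, with 95% Poisson intervals of 199 to 260, 274 to 343, 235 to 300 and 199 to 260 for counting error only, over controls of 32.7, 41.6, 29.7 and 23.2. The site also lies in the window of RAD23C, so position alone does not assign it to LBD41. LBD41 had weaker sites as well: one 1775 to 1825 bp downstream of the TSS, in an annotated 5′ UTR past its own 3′ end, had folds of 1.99 in BRIP1 replicate 2 and 2.61 and 1.94 in BRIP2, and no peak in BRIP1 replicate 1. Another near 1370 bp upstream had a peak in both BRIP2 libraries, with folds of 2.49 and 2.56, and in no BRIP1 library.

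The nitrate-related genes LBD39, LBD38 and LBD37 are taken next, by role. At LBD39 (AT4G37540) the highest summits lay 2451 bp upstream, with folds of 4.34 and 4.39 for BRIP1 and 5.31 and 4.89 for BRIP2. That position is in the 5′ UTR of the neighbouring gene AT4G37550, whose TSS is 266 bp away and nearer than that of LBD39. The peaks formed 1 region of 3075 bp that reached back to LBD39, with further summits 1000 to 1058 bp upstream in 3 libraries (3.69 and 3.68 for BRIP1, 3.22 for BRIP2 replicate 2) and 85 to 117 bp upstream in 3 libraries (3.14 for BRIP1 replicate 1, 3.24 and 2.97 for BRIP2). The region at LBD39 thus held several summits, where that at LBD41 held 1 in each library.

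At LBD38 (AT3G49940) the shared site lay 137 bp past the 3′ end. Folds were 3.63 and 4.10 for BRIP1 and 4.53 and 3.81 for BRIP2. The ranges of the 2 proteins overlapped. All 4 peaks were over 1000 bp wide (1106 to 1512 bp), and the summit of BRIP1 replicate 2 lay 323 bp past the 3′ end, those of the other libraries 101 to 138 bp. A promoter summit, 236 bp upstream of the TSS, was listed in BRIP2 replicate 2 alone (fold 2.15).

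LBD37 (AT5G67420) was bound inside the gene, 643 bp past the TSS in its annotated 5′ UTR, with folds of 2.28 and 2.61 for BRIP1 and 3.29 and 3.22 for BRIP2. Here the BRIP2 folds were both above the BRIP1 folds. A second site lay at its 3′ end, from 82 bp before to 41 bp past it, with folds of 3.48 and 3.30 for BRIP1 and 2.76 for BRIP2 replicate 2. BRIP2 replicate 1 had a peak in that region too, but with its summit outside the window. A further site 2264 to 2773 bp upstream had folds of 1.71, 2.118 and 2.31 in BRIP1 replicate 2, BRIP2 replicate 1 and BRIP2 replicate 2, respectively.

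LBD40 (AT1G67100) had 2 sites upstream. At the nearer one, 586 bp from the TSS, folds were 2.52 and 2.51 for BRIP1 and 2.28 and 2.48 for BRIP2, a narrow range in which both BRIP2 values lay below both BRIP1 values. At the farther one, 2127 bp from the TSS, folds were 2.50 and 3.39 for BRIP1 and 2.55 and 2.79 for BRIP2, and the BRIP1 replicates differed by more than the 2 proteins did. That site is nearer the TSS of RBCS1A, a gene for the small subunit of Rubisco. LBD42 (AT1G68510) was the class II gene not bound in all 4 libraries. It had a summit 265 bp upstream in BRIP1 replicate 1 (fold 2.03), and another 2945 to 2970 bp upstream in BRIP1 replicate 2 (2.11) and BRIP2 replicate 1 (2.72), so its 3 libraries did not share a site and the farther one lay at the edge of the window.

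**Figure D2:**
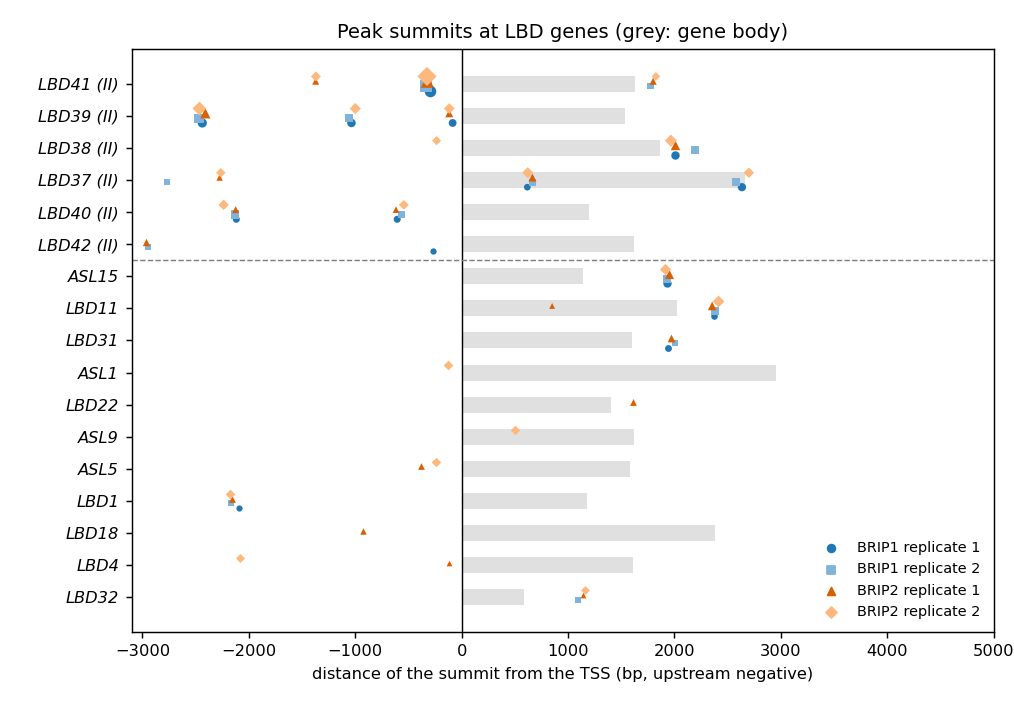
Position of every peak summit at the 17 LBD genes with at least 1 (x axis, bp from the TSS, upstream negative; symbol area grows with fold; grey bars are gene bodies), by library, with class II (II) above the dashed line. The symbols of all 4 libraries gather 324 bp upstream of LBD41, while at LBD38, ASL15 and LBD11 they gather past the 3′ end.

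Among class I genes, ASL15 (AT2G42440) and LBD11 (AT2G28500) were bound past their 3′ ends, by 791 bp and 356 bp. ASL15 had folds of 3.57 and 2.84 for BRIP1 and 4.23 and 3.34 for BRIP2, with the ranges overlapping. Its summits fell within 42 bp of each other. The same site was the one nearest to the adjacent lateral root gene LBD16, from whose TSS it lay 4533 to 4575 bp, beyond that gene's window. LBD11, which promotes secondary growth in the cambium, had folds of 2.22 and 2.68 for BRIP1 and 3.78 and 3.59 for BRIP2, so both BRIP2 values were above both BRIP1 values. It also had a weak intronic peak in BRIP2 replicate 1 (fold 1.73). LBD1 (AT1G07900), which acts with LBD11 in the cambium, had the weakest shared site, 2160 bp upstream, with folds of 1.97 and 1.94 for BRIP1 and 2.35 and 2.39 for BRIP2. The site is in the window of APX1, an ascorbate peroxidase gene, as well.

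**Figure D3:**
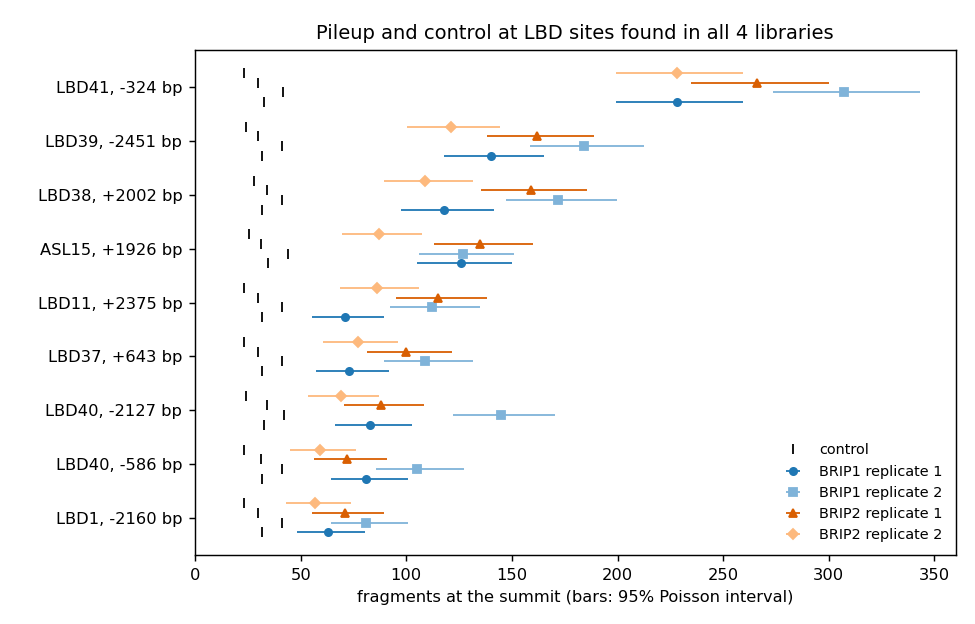
Fragments piled up at the summit (x axis, number of fragments; bars are 95% Poisson intervals for counting error only) and the control value (black ticks) in each library at the 9 LBD sites found in all 4 libraries. LBD41 sits between 228 and 307 fragments in the 4 libraries, and LBD1 between 57 and 81.

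Outside these, 9 members had summits in some libraries. LBD31 had a site 335 to 404 bp past its 3′ end in both BRIP1 libraries (2.40 and 2.11) and in BRIP2 replicate 1 (3.06). LBD32 had one 504 to 573 bp past its 3′ end in BRIP1 replicate 2 (1.86) and both BRIP2 libraries (1.67 and 1.99). The LBD32 folds were close to the lowest that the lists hold. ASL9, LBD18, LBD22 and ASL1 had 1 peak each, in a BRIP2 library, with folds of 2.31, 2.118, 2.38 and 2.39. Of these, the summit of ASL1 was 127 bp upstream and that of LBD18, which acts in lateral root and xylem formation, 923 bp upstream.

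No member was bound in both BRIP1 libraries and in neither BRIP2 library, beside 0.135% of all genes, and 2 members, ASL5 and LBD4, were bound in both BRIP2 libraries and in neither BRIP1 library, beside 5.62%. Leaving out BRIP2 replicate 1 made LBD31 and LBD42 count as bound by BRIP1 alone, beside 0.725% of all genes. ASL5 had overlapping BRIP2 peaks with folds of 2.303 and 2.311, and summits 381 and 241 bp upstream. LBD4, a gene of the phloem side of the cambium, had BRIP2 summits at different places, 118 bp upstream in replicate 1 (fold 1.66) and 2082 bp upstream in replicate 2 (2.104). BRIP2 replicate 1 has the longest list. With the 4 lists cut to the 3637 peaks of best q value in each, no member was bound by BRIP2 alone, beside 1.07% of all genes. Whether list length accounts for the calls at ASL5 and LBD4 was not tested.

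The 25 genes with no summit in the window were LOB, JLO, LBD2, LBD5, LBD7, LBD8, LBD9, LBD10, LBD13, LBD14, LBD15, LBD16, LBD19, LBD20, LBD21, LBD23, LBD24, LBD25, LBD26, LBD27, LBD28, LBD29, LBD33, LBD35 and AT5G15060. They include LOB, the gene that names the family, JLO, a regulator of organ boundaries, and LBD16, LBD29 and LBD33 of the lateral root pathway. The window decided some of these. At LBD33 all 4 libraries had a summit 142 to 269 bp beyond its upstream edge, with folds of 1.88 and 2.06 for BRIP1 and 2.38 and 2.70 for BRIP2. At LBD24 all 4 had one 499 to 642 bp beyond it, with folds of 2.37, 2.37, 2.93 and 2.43 in BRIP1 replicates 1 and 2 and BRIP2 replicates 1 and 2. Over the 25 genes, 5 had a summit of any library within 1000 bp of the window.

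**Figure D4:**
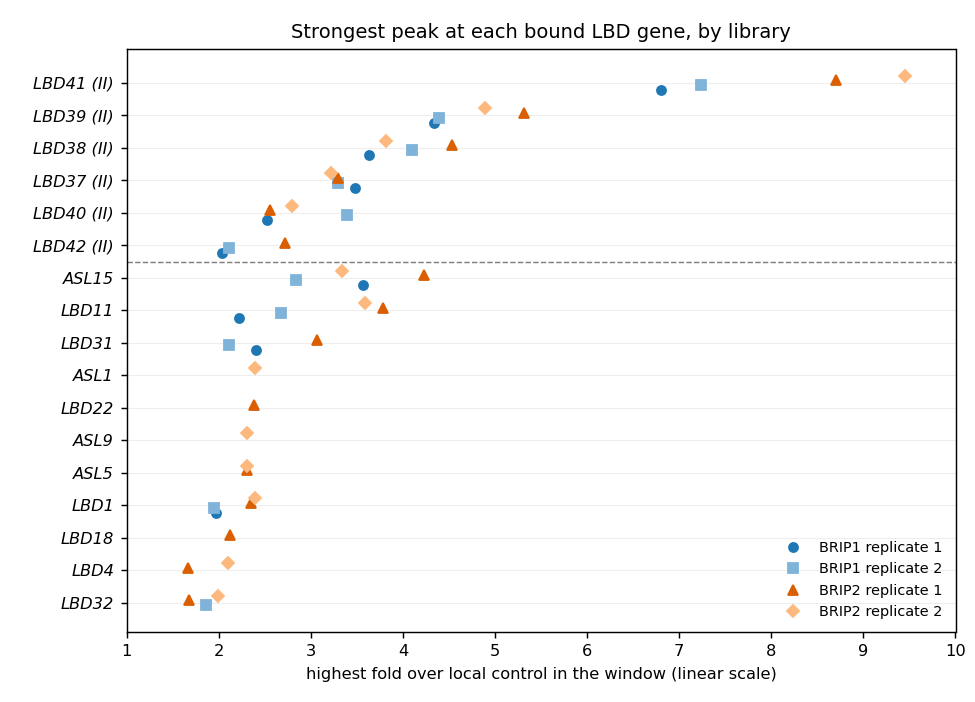
Highest fold over local control in the window (x axis, linear) at the 17 LBD genes with at least 1 summit, 1 symbol per library, ordered by mean fold within class II (II, above the dashed line) and the other members. LBD41 lies between 6.81 and 9.45, apart from all others, and no class I gene exceeds 4.23.

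BRIP1 and BRIP2 were then compared at the 9 shared LBD regions with limma on log2 fold, centred on the median of each library and fitted over all 2982 regions. The means over 2 replicates were 7.02 ± 0.31 (SD, n = 2) for BRIP1 and 9.07 ± 0.53 for BRIP2 at LBD41, 4.36 ± 0.033 and 5.10 ± 0.29 at LBD39, and 2.45 ± 0.33 and 3.68 ± 0.13 at LBD11. BRIP2 had the higher mean at 7 of the 9 regions, the exceptions being both LBD40 sites, and at 86.0% of all regions. None of the 9 differed at an adjusted p under 0.05, a limit that 1.11% of all regions passed (0.302% higher in BRIP2, 0.805% higher in BRIP1), and 3 of the 9 had an unadjusted p under 0.05, beside 17.6% of all regions. LBD11 came closest, with a BRIP2 minus BRIP1 difference of 0.36 ± 0.12 (log2, SE; limma adjusted p = 0.147). The LBD40 sites differed the other way, by -0.36 ± 0.14 (adjusted p = 0.181) at 2127 bp and -0.32 ± 0.12 (adjusted p = 0.182) at 586 bp. At LBD41 the difference was 0.13 ± 0.12 (adjusted p = 0.594) and at LBD39 -0.01 ± 0.12 (adjusted p = 0.967).

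Centring takes away a shift of 0.236 log2 units by which BRIP2 folds exceeded BRIP1 folds over all regions. On uncentred folds 3 of the LBD regions were called higher in BRIP2, beside 23.8% of all regions: LBD11 at 0.60 (limma adjusted p = 0.00127), LBD37 at 0.42 (adjusted p = 0.024) and LBD41 at 0.37 (adjusted p = 0.0442). Of all regions, 24.2% passed in either direction on this scale. The calls at these 3 sites thus depended on centring. The size of the LBD40 differences did as well. Without centring they were -0.12 at 2127 bp and -0.085 at 586 bp, against -0.36 and -0.32 with it, and neither site was called on either scale. With 2 libraries against 2, an exact permutation test of a single site could not go below p = 0.333.

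**Figure D5:**
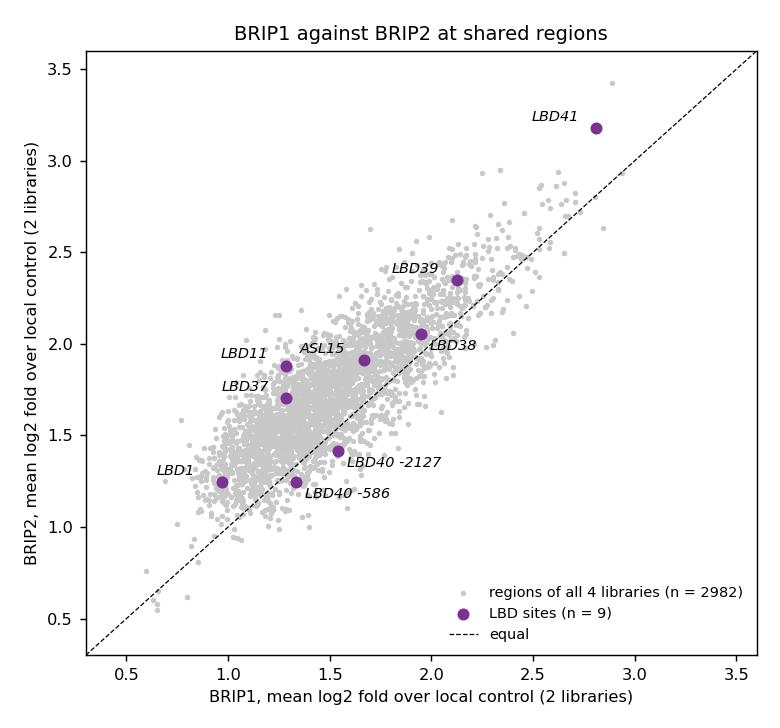
Mean log2 fold over local control of BRIP1 (x axis) and BRIP2 (y axis), 2 libraries each, at the 2982 regions with a peak of all 4 libraries (grey) and the 9 LBD sites (purple). Most regions lie above the line of equal values, the LBD sites with them except the 2 of LBD40.

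At the LBD regions 14 of 36 peaks (38.9%) reached 1000 bp, of which 8 were those of LBD41 and LBD38, beside 22.6% of the peaks of all shared regions (11.2% to 35.1% by library), and the median region width was 1162 bp beside 883.5 bp over all shared regions. Their median mean fold was 2.94 for BRIP1 and 3.68 for BRIP2, beside 2.75 and 3.24.

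In the 201 bp around the summits, motifs were read at 8 of the 9 LBD regions, that of LBD41 left out. The W-box core TTGAC was found in 3 (ASL15, LBD39 and LBD40), beside 46.3% of all 2982 regions. The G-box was found in 1, ASL15, which held 2 copies in the window printed above, beside 20.1%. The TCP site occurred at ASL15, beside 7.95%, TGTCTC at LBD39, beside 17.0%, and GAGAGAGA at LBD37, beside 9.19%. TGTCGG (6.84% of all regions), GCGGCG (2.48%), the telo-box (1.34%) and the relaxed HRPE (1.11%) were in none of the 8. These are matches of letters, and binding of the factors was not measured. For LBD39 the region read was the site 2451 bp upstream, in the 5′ UTR of the neighbouring gene AT4G37550. The LBD39 window printed above lies at a different site, 1036 bp upstream, and was not the one read here.

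Lists of genes from the pathways in which LBD proteins act were read with the same rule. Of their 51 genes, 14 (27.5%) were bound in all 4 libraries, beside 14.9% of all genes. The window grows with gene length, which was not matched between the lists and all genes. In the low-oxygen list 5 of 12 were: RAP2.2, RAP2.12, AT5G15120 (PCO1), AT5G39890 (PCO2) and AT4G33070 (PDC1). RAP2.2 and RAP2.12 encode oxygen-sensitive activators of the response. PCO1 and PCO2 encode cysteine oxidases that mark such activators for breakdown, and PDC1 encodes a pyruvate decarboxylase. At PCO1 (AT5G15120) the mean fold was 3.25 ± 0.066 (SD, n = 2) for BRIP1 and 6.17 ± 0.030 for BRIP2, with summits within 15 bp of the TSS in all 4 libraries. At RAP2.2 it was 3.58 ± 0.44 and 3.79 ± 0.17, with summits 919 to 1266 bp upstream. The highest peak of RAP2.12 was not at the same site in all 4 libraries. The highest summits of PDC1 lay 2887 to 2942 bp upstream, near the edge of the window. ADH1, HRE1 and HRE2 (annotated as ERF73 and ERF71) and SUS4 had a summit in 1 library each, and SUS1 in both BRIP2 libraries. HB1 and the related gene RAP2.3 (annotated as EBP) had none in any library.

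In the nitrate and anthocyanin list 2 of 9 genes were bound in all 4 libraries, beside 14.9% of all genes, as for each list below. These were the nitrate transporter gene NRT1.1 and the nitrate reductase gene NIA1 (2.78 ± 0.11 for BRIP1, 3.21 ± 0.39 for BRIP2). The highest NIA1 summits lay 1433 to 1574 bp upstream. The highest peak of NRT1.1 lay at different places, 2728 and 2709 bp downstream of the TSS in replicate 1 of BRIP1 and BRIP2 (folds 2.80 and 3.99) and 1796 and 1831 bp upstream in replicate 2 (3.15 and 3.88). The anthocyanin regulator PAP1, which LBD37 to LBD39 are known to repress, had a summit in BRIP2 replicate 2 alone, at a fold of 2.68. In the auxin and lateral root list 2 of 10 were bound in all 4 libraries. These were ARF19 (3.07 ± 0.12 and 3.24 ± 0.38) and the Aux/IAA repressor SHY2 (2.21 ± 0.042 and 2.78 ± 0.034). The highest ARF19 summits lay 5249 to 5331 bp downstream of the TSS, and those of SHY2 24 to 109 bp downstream. Another 7 genes had no summit, ARF7 (NPH4) and IAA14 among them. In the boundary and leaf list 3 of 12 were bound in all 4 libraries. The homeobox gene KNAT6 (3.24 ± 0.050 and 2.92 ± 0.57) had its highest summits 4303 to 4379 bp downstream of the TSS. The boundary gene BOP1 (2.99 ± 0.44 and 3.09 ± 0.23) had them 2693 to 2763 bp upstream. For BOP2 (3.14 ± 0.49 and 2.64 ± 0.051) they lay 2208 to 2302 bp upstream. AS1, whose protein works with AS2, was bound in 3 libraries at folds of 3.20, 3.26 and 3.30, and AS2 in 2, BRIP1 replicate 1 and BRIP2 replicate 1, at 2.14 and 2.48. In the vascular list 2 of 8 were bound in all 4 libraries. These were VND7, a xylem vessel regulator (2.11 ± 0.026 and 2.44 ± 0.19), and MP, an auxin response factor gene. The highest VND7 summits lay 1080 to 1219 bp downstream of the TSS. The highest MP peaks of the proteins were at different sites, 184 and 109 bp upstream for BRIP1 (folds 1.79 and 1.76) and 1945 and 1987 bp upstream for BRIP2 (2.02 and 2.43). The BRIP1 folds at MP were close to the lowest that the lists hold.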

How the data were processed

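The 4 peak lists came from anti-GFP ChIP-seq of seedlings with a BRIP1 or BRIP2 fusion, grouped by sample title. The tools named in the submitters' processing notes are Bowtie, MACS2 2.1.1 and deepTools, with the TAIR10 build. The deposited lists give for each peak a linear fold (a ratio of pileup to local control), -log10 p and q values, and a score, which was not used. The control libraries given to the peak caller and its parameters are not given in the sources used here, and no read counts were used. The pileup and control at each summit were solved from the fold and p-value under the Poisson model of MACS2 and came out whole (within 0.05) for 99.8% to 99.9% of peaks in each library. Their intervals cover counting error only.

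Summits were placed on RefSeq TAIR10.1, whose nuclear coordinates match TAIR10. Regions were sets of overlapping peaks (at least 1 bp), and the highest fold per library was kept. BRIP2 was compared with BRIP1 by limma 3.58.1 (R 4.3.3) on log2 fold, with Benjamini-Hochberg adjustment over 2982 regions and a call at 0.05. The procedure was also run on simulated data, without centring and with planted differences larger than any seen at the LBD regions. That run does not show whether differences as small as theirs would be called. The replicates are labelled as biological, but nothing says whether seedling batches were separate. The p-values therefore measure spread between these libraries, which limma pools in part over all regions. In the uncentred fit the SE was 0.144 at each of the 9 LBD regions, so it held no spread particular to a site. Values are given for each member with a region of all 4 libraries, in order of role and then of within-library percentile, and for up to 4 genes per list with the best percentiles. Genes bound in some libraries, and AT4G33070, ADH1, AS1, AS2, PAP1 and similar list genes outside that rule, were chosen after their values were seen. The members, the class split and the lists were chosen with earlier results of these data known. Alternatives covered peak thresholds, windows, the definition of a region, centring, a replicate block and each library left out. The sequence around one LBD site is not reported here, and its motifs were not counted.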

Additional observations from a re-analysis of the deposited data

How the results depend on the processing

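The count of members bound in all 4 libraries, 8, was 4 at fold 3 or more (3.97% of all genes). All were class II, LBD37 by differing sites. The count was 3 from 1000 bp upstream to the 3′ end (6.96%) and 5 within 2000 bp of the TSS (9.96%). It was 6 with a -log10 q of 10 or more (8.55%), 7 with lists of equal length (11.1%), 9 by nearest TSS (LBD29 added, 9.54%), and 8 to 10 with a library left out (15.1% to 20.5%). In class II, 3 of 6 stayed with the window from 1000 bp upstream, and 5 to 6 with a library left out. Among the other members the count of 3 became 1 at a -log10 q of 10, 0 at fold 3, 0 with the window from 1000 bp upstream, and 1 within 2000 bp of the TSS, and 3 to 4 with a library left out.

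The count bound by BRIP2 alone, 2, beside 5.62% of all genes, was 0 at a -log10 q of 10 (1.74%) and with lists of equal length (1.07%). It was 1 at fold 3 (2.99%), with the window from 1000 bp upstream (3.72%) and within 2000 bp of the TSS (4.63%), and 2 to 4 with a library left out (6.25% to 12.7%; 4 without BRIP2 replicate 1, at 7.42%, or replicate 2, at 12.7%). The count bound by BRIP1 alone was 0 to 2 with a library left out, the 2 arising without BRIP2 replicate 1 (0.725% of all genes). LBD31 and LBD42 entered the all-library count without BRIP2 replicate 2, and LBD32 without BRIP1 replicate 1.

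The limma comparison called 33 of 2982 regions, and 721 without centring, where 3 LBD regions passed. It called 53 of 1998 with 50% reciprocal overlap, 49 of 2152 with summits within 150 bp, 19 of 1732 at a -log10 q of 10, 58 with pileup over library background, and 12 to 99 with a library left out (13 and 12 without BRIP1 replicates 1 and 2, 99 and 57 without BRIP2 replicates 1 and 2). A fit with one library left out leaves 1 library in an arm, which is assumed to vary like the others. In none of these was an LBD region called. Not every fit held all 9 LBD regions: 6 were in the fit with reciprocal overlap, 8 in that with summits within 150 bp, and 5 in that at a -log10 q of 10. An LBD site absent from a fit was not tested there. The replicate number as a block called 0 of 2982 regions and 0 of the 9 LBD regions (489 at an unadjusted p under 0.05), and the deviations of same-numbered libraries had a correlation of 0.008, so the numbers were not taken to pair the libraries.

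Small differences changed sign. LBD38, at -0.13 log2, was 0.11 without centring and 0.076 with pileup over background. LBD39 was 0.22 without centring, 0.015 at a -log10 q of 10, and -0.048 to 0.024 with a library left out (above 0 without BRIP1 replicate 1 or BRIP2 replicate 2). ASL15 was -0.032 with pileup over background and -0.21 to 0.21 with a library left out (below 0 without BRIP1 replicate 2 or BRIP2 replicate 1). LBD1 was -0.014 to 0.093 with a library left out (below 0 without BRIP1 replicate 2 or BRIP2 replicate 2). The causes of these changes were not tested. The share of the 8 LBD regions was 37.5% at 50 bp and 75.0% at 150 bp each side, against 50%, for a match to any of the 9 motifs, beside 51.6%, 84.4% and 73.3% of all 2982 regions.

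A site below the lowest folds in the lists could not be seen at this depth, so a gene without a summit is not shown to be unbound.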
